A study of Rattus norvegicus with 9 samples.

Results

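Hbb, Hba-a2 and Alas2 are 3 genes of the red cell lineage whose transcripts were counted in rat liver. They were taken by symbol from the 24496 genes of the count table, and all 3 were among the 11924 genes with enough counts to be tested. The members were selected on their counts in these same libraries, with their difference between the treatment groups known, so that difference is given as a description with no test. Liver RNA came from 9 female Wistar rats, 1 library per animal. All were fed a western diet from 10 weeks of age, ovariectomised after 6 weeks of it and given degarelix, a drug that blocks the pituitary receptor for gonadotropin-releasing hormone and so lowers the animal's own gonadotropins. Osmotic pumps held vehicle in 5 rats (degarelix-only) and follicle-stimulating hormone (FSH) in 4 rats (degarelix + FSH), the latter at a daily dose of 6 µg/kg. Food was restricted over 12 days, then unrestricted over 7 days, and liver was collected from fasted animals (4 h) aged 19 weeks. Every animal thus lacked ovaries and received degarelix, and whether the livers were flushed of blood is not given in the sources used here.

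Haemoglobin is a tetramer of alpha-type and beta-type globin chains, each holding a haem group, and its messenger RNA persists in young red cells after they lose their nucleus. Hbb encodes an adult beta chain and Hba-a2 an adult alpha chain. Alas2 encodes the erythroid form of 5-aminolevulinate synthase, which catalyses the first step of haem synthesis in red cell precursors, while Alas1 encodes the form used by hepatocytes and most other cells. The adult liver is not normally a site of red cell formation, but it is rich in blood and clears haemoglobin and haem from plasma. In a bulk tissue sample, fewer cells of a type and less RNA per cell cannot be told apart.

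Library totals lay between 19295580 and 28672439 counts, so that 1 read was worth 0.0353 to 0.0532 CPM (read counts scaled to a common library size). Albumin, Alb, took 10.5 to 19.4% of the counts, the highest share being in FSH replicate 1 and the lowest in FSH replicate 3. The adult globin genes Hbb, Hba-a2, Hba-a3 and LOC103694855 together took 0.0113 to 0.0244% in 8 libraries and 0.0609% in FSH replicate 3. In edgeR's quasi-likelihood test across all genes, 4 genes (0.0335%) passed a false discovery rate (FDR) of 0.05, 3 higher (0.0252%) and 1 lower (0.00839%) with FSH. None of the 3 members was among them, a count from which nothing is read, since this contrast chose them. DESeq2 placed 1 of the 3, Hbb, past the same threshold, along with 1.65% of the 10991 genes it gave an adjusted p, and nothing is read from that count either.

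The sequences before the globin gene starts are shown because each chain is encoded by several similar genes among which reads had to be assigned. They are the 250 bases before each start in RefSeq's GRCr8 assembly, a build other than that of the counts (rn6), on the minus strand and read in the direction of the gene. Hbb lies at chr1:167663722-167663971, Hba-a2 at chr10:15829139-15829388 and Hba-a3 at chr10:15816944-15817193. Capitals mark matches on either strand to motifs known from globin and haem gene promoters. The GATA factor motif was searched as AGATAA and, separately, as TGATAA. The others were the CACC box, CCACCC, then the CCAAT box and the TATA box, searched as TATAAA. Both matches in Hbb adjoin and form one run in capitals, and no matches overlap in the windows shown.
Hbb: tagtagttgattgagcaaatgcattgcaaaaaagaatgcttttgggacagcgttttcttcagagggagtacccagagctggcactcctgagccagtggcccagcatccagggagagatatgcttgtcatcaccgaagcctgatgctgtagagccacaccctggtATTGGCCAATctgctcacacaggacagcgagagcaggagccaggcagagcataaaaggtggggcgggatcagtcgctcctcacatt
Hba-a2: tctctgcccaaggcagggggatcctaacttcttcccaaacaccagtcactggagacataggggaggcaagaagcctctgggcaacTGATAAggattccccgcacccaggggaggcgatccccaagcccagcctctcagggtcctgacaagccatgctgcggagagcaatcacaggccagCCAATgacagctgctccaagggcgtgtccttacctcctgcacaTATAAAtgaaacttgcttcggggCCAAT
Hba-a3: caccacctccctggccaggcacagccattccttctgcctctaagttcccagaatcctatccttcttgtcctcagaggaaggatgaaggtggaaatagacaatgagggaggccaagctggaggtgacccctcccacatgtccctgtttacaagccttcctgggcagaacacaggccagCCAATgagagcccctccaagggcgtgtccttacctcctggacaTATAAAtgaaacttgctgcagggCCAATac
CCAAT occurs in all 3 windows, in Hbb on both strands from 86 to 77 bases before the start. TATAAA occurs in both alpha genes and TGATAA in Hba-a2 alone of these 3, from 165 to 160 bases before the start. Of 33469 RefSeq windows of this length, 34% hold CCAAT, 12.9% TATAAA, 7.97% TGATAA, 10.3% AGATAA and 26.1% CCACCC, the last being in none of the globin windows shown. The window listed for Alas2 holds AGATAA from 136 to 131 bases before the listed start, but it lies inside the span RefSeq gives the gene and is not shown. LOC103694855 had no entry. The window of Hbb shared 60.9 to 61.5% of aligned bases with those of 4 further beta-globin genes in RefSeq (Hbb-b1, Hbb-b2, Hbb-bs and Hbbl1), which shared 93.3 to 98.4% with each other. Hba-a2 shared 65.5% with Hba-a3 and 96.4% with Hba-a1.

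Hbb (ENSRNOG00000058105) was higher in most FSH animals. It stood at 57.9, 43.5, 77.2, 88.0 and 50.8 CPM in vehicle replicates 1 to 5 and at 192, 83.2, 328 and 134 CPM in FSH replicates 1 to 4. FSH replicates 1, 3 and 4 lay above every vehicle library, and FSH replicate 2 lay within the vehicle range. The groups thus overlapped by 1 library, where 4.11% of all tested genes had groups that did not overlap, and 2.19% of all tested genes did so with FSH higher. The means were 184 ± 105 CPM with FSH (SD, n = 4) and 63.5 ± 18.6 CPM with vehicle (SD, n = 5), a log2 fold change of 1.54 (SE 0.35).

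Hba-a2 (ENSRNOG00000047321) and Alas2 (ENSRNOG00000000167) were highest in FSH replicate 3, and their other FSH libraries lay within the vehicle range. Hba-a2 stood at 36.7, 28.1, 40.6, 63.1 and 41.0 CPM in vehicle replicates 1 to 5 and at 54.2, 34.1, 149 and 54.9 CPM in FSH replicates 1 to 4. Only FSH replicate 3 lay above the vehicle range, 2.72 times the next FSH library, and vehicle replicate 4 was above the other 3 FSH libraries. The log2 fold change of Hba-a2 was 0.80 (SE 0.38), from means of 73.1 ± 51.7 CPM (SD, n = 4) and 41.9 ± 12.9 CPM (SD, n = 5).

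Alas2 was at 1.47, 1.40, 1.73, 3.43 and 1.44 CPM with vehicle and at 2.62, 1.502, 8.02 and 1.77 CPM with FSH, in the same order of replicates. These levels rest on 27 to 87 counts per library, except for 208 counts in FSH replicate 3. As for Hba-a2, FSH replicate 3 was the highest library of its group and vehicle replicate 4 the highest of the vehicle group. The means were 3.48 ± 3.07 CPM (SD, n = 4) and 1.89 ± 0.870 CPM (SD, n = 5), a log2 fold change of 0.87 (SE 0.50).

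**Figure D1:**
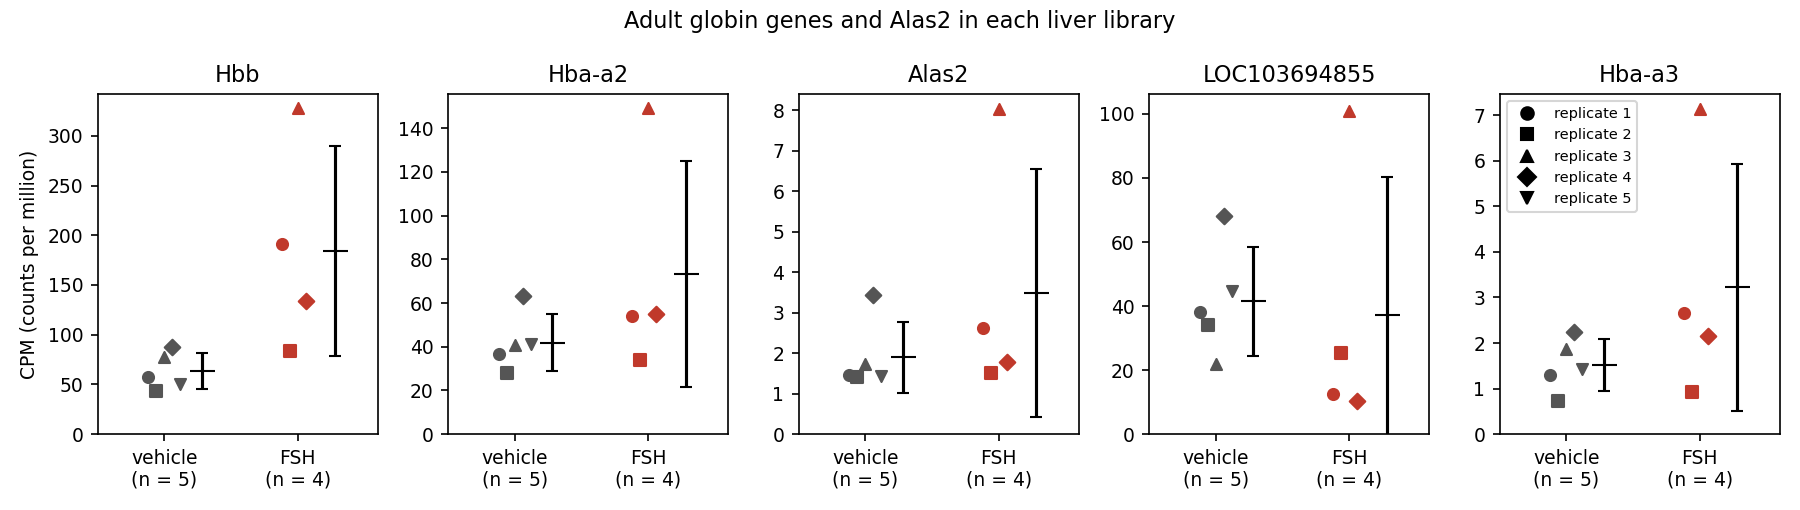
CPM of Hbb, Hba-a2, Alas2, LOC103694855 and Hba-a3 in each library, with 1 point per animal, its shape giving the replicate number, and the mean with its SD at the side (cut at 0 where it reaches below). FSH replicate 3 is the highest library in each panel, and 3 of 4 FSH libraries lie above every vehicle library for Hbb but 1 of 4 for Hba-a2 and Alas2.

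The other adult globin genes were Hba-a3 and LOC103694855. Hba-a3 (ENSRNOG00000045989), a further alpha chain gene, stood at 1.31, 0.720, 1.87, 2.25 and 1.44 CPM with vehicle and 2.66, 0.933, 7.13 and 2.16 CPM with FSH. The fitted difference was 1.09 on the log2 scale (SE 0.51), with an edgeR adjusted p of 0.451. Its counts were 2.50 to 4.68% of the counts of the 2 alpha genes in the 9 libraries. LOC103694855 (ENSRNOG00000047098), described in the table as a beta-2-like haemoglobin subunit, differed in direction between FSH animals. It stood at 38.3, 34.2, 22.05, 68.3 and 44.7 CPM with vehicle and at 12.7, 25.2, 100.9 and 10.4 CPM with FSH. FSH replicates 1 and 4 lay below every vehicle library and FSH replicate 3 above all of them. The fitted log2 difference of LOC103694855 was −0.15 (SE 0.61) with an edgeR adjusted p of 0.950. It was −1.37 without FSH replicate 3 and 0.16 without FSH replicate 4. The embryonic genes Hbe2, Hbg1 and Hbz were listed at 0 in every library, and Hbe1 and Hbq1b had at most 2 counts in any.

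The split of beta-globin counts between LOC103694855 and Hbb varied more between animals than counting error. With vehicle, LOC103694855 took 39.8% of the counts of both genes in replicate 1 (95% Wilson interval 37.6 to 42.1%), 44.0% in replicate 2 (41.9 to 46.1%), 43.7% in replicate 4 (42.1 to 45.2%) and 46.8% in replicate 5 (44.5 to 49.1%), but 22.2% in replicate 3 (20.7 to 23.8%). With FSH it took 23.3% in replicate 2 (21.7 to 24.9%) and 23.5% in replicate 3 (22.8 to 24.3%), but 6.20% in replicate 1 (5.57 to 6.89%) and 7.20% in replicate 4 (6.37 to 8.12%). The values therefore lay in 3 separate ranges, of which the middle range held animals of both groups, the highest only vehicle animals and the lowest only FSH animals. These intervals cover counting error only. How reads were assigned among the similar beta-globin genes is not given in the sources used here, and its part in this split, and in the log2 fold change of 1.54 for Hbb, was not tested.

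**Figure D2:**
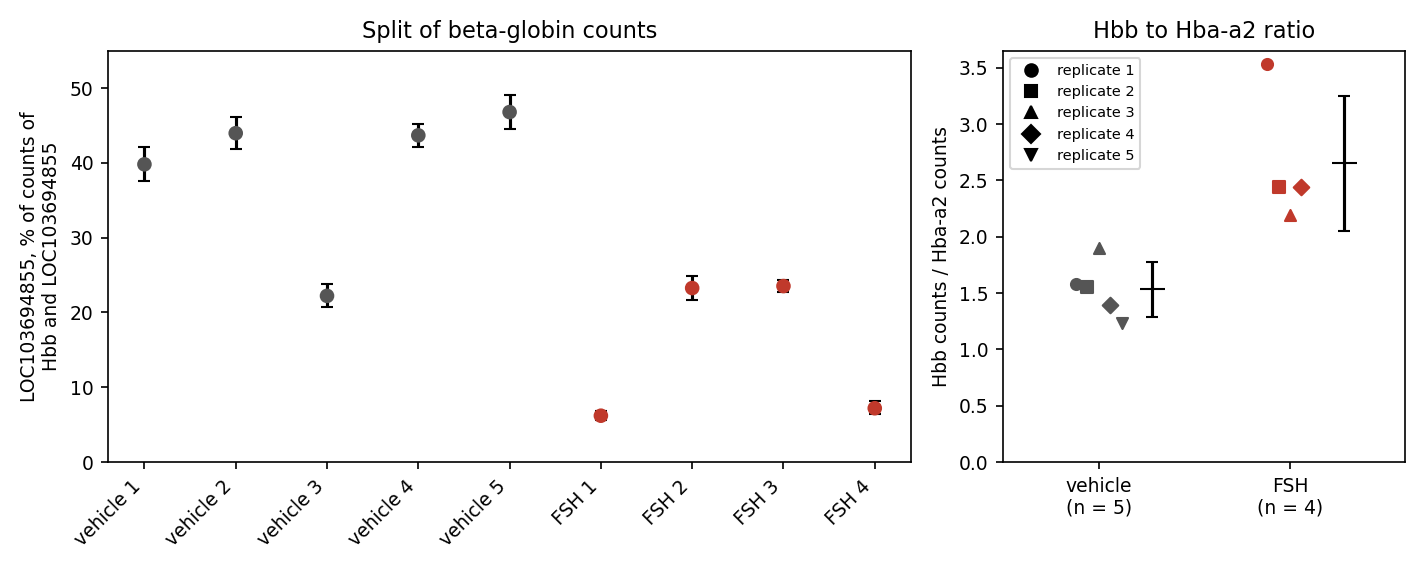
Left, the percent of beta-globin counts assigned to LOC103694855 rather than Hbb in each library, with 95% Wilson intervals; right, the ratio of Hbb to Hba-a2 counts by group, with 1 point per animal and the mean with its SD. The shares lie near 6 to 7%, 22 to 24% and 40 to 47%, and the ratios of the FSH libraries (2.20 to 3.54) lie above those of the vehicle libraries (1.24 to 1.90). The ratios carry no test, since both genes were chosen with this contrast known.

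The ratio of Hbb to Hba-a2 counts was 1.58, 1.55, 1.90, 1.40 and 1.24 in vehicle replicates 1 to 5 and 3.54, 2.44, 2.20 and 2.44 in FSH replicates 1 to 4. The groups did not overlap, with means of 2.65 ± 0.599 (SD, n = 4) and 1.53 ± 0.247 (SD, n = 5). Both genes were chosen with this contrast known, so the separation is a description with no test. The share of other gene pairs whose ratios separate in this way was not computed. Summing each chain's 2 genes brought the groups closer. The ratio of summed beta to summed alpha counts was 2.53 to 3.59 with FSH and 2.25 to 2.70 with vehicle, and 3 of 4 FSH libraries lay above the vehicle range. Summed beta-globin stood at 96.2, 77.7, 99.2, 156 and 95.5 CPM with vehicle and at 204, 108, 429 and 145 CPM with FSH, so that FSH replicates 2 and 4 lay within the vehicle range. The log2 fold change of the sum was 1.08 (SE 0.36), against 1.54 for Hbb, and 0.54 (SE 0.24) without FSH replicate 3. For the summed alpha genes it was 0.81 (SE 0.39), and 0.19 without FSH replicate 3.

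The members varied together between animals of the same group. After subtraction of the group means of log2 CPM, Hba-a2 and Alas2 had a Pearson r of 0.95 over the 9 animals (exact permutation p = 0.00347, adjusted over 3 pairs 0.00417) and a Spearman rho of 0.80 (exact permutation p = 0.0191, adjusted 0.0191). For Hbb and Hba-a2, r was 0.92 (exact permutation p = 0.00417, adjusted 0.00417) and rho 0.83 (exact permutation p = 0.0104, adjusted 0.0156). For Hbb and Alas2, r was 0.91 and rho 0.98, each at an exact permutation p of 0.000347, the smallest the 2880 arrangements within groups allow, and adjusted 0.00104. The tests were 2-sided. The members were chosen with their group difference known, and FSH replicate 3 carried much of that difference. These p-values are therefore not independent of the choice. Without the 2 animals farthest from the median, r was 0.64 for Hba-a2 and Alas2 (without FSH replicate 3 and vehicle replicate 4), and 0.78 for Hbb and Hba-a2 and 0.85 for Hbb and Alas2 (each without FSH replicates 2 and 3). Alas2 kept a similar proportion to Hba-a2 in both groups, at 32.3 to 53.7 counts per 1000 Hba-a2 counts with FSH and 34.97 to 54.4 with vehicle. Per 1000 Hbb counts, Alas2 had 13.2 to 24.5 counts with FSH and 22.4 to 39.0 with vehicle. By that measure 3 of 4 FSH libraries lay below the vehicle range.

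**Figure D3:**
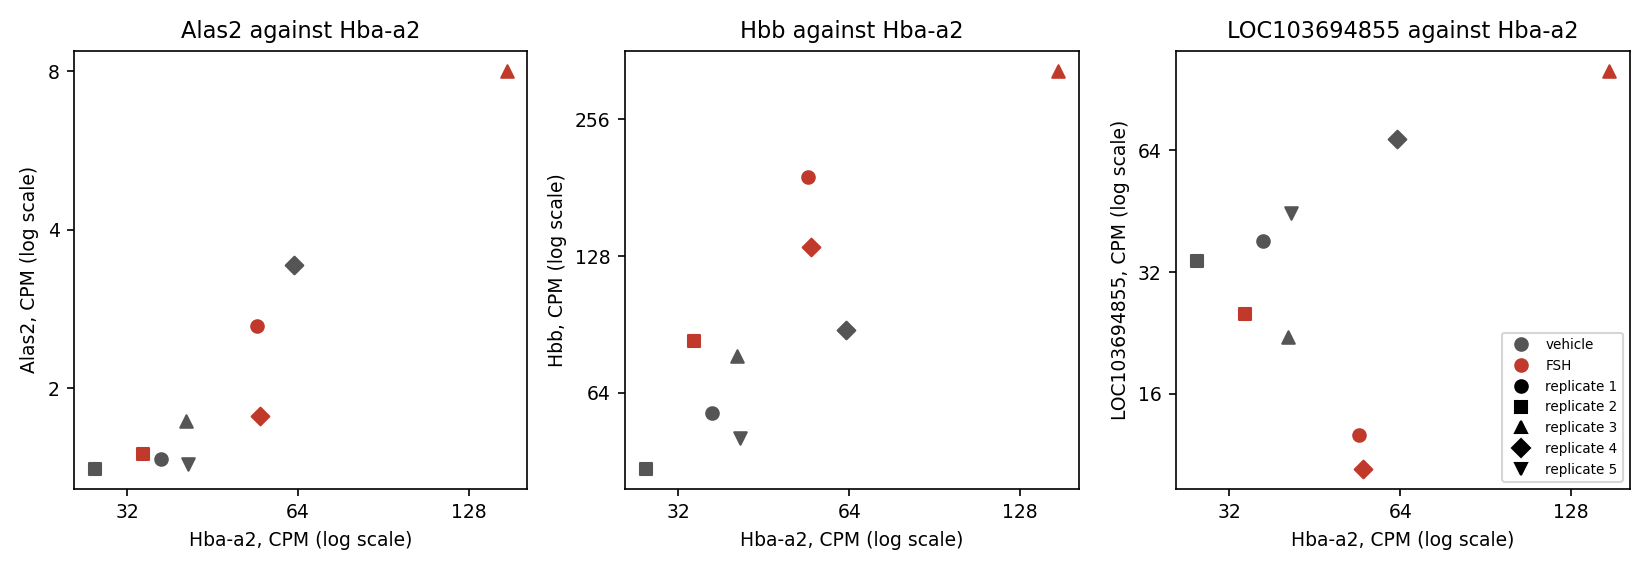
CPM of Alas2, Hbb and LOC103694855 against Hba-a2 in the 9 libraries, on log scales, with colour for group and shape for replicate number. Alas2 follows Hba-a2 in both groups, Hbb lies higher for a given Hba-a2 level in the FSH libraries, and LOC103694855 is lowest in FSH replicates 1 and 4.

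FSH replicate 3 carried much of the difference between group means. Without it the log2 fold change of Hbb was 1.10, that of Hba-a2 0.19 and that of Alas2 0.043. Leaving out any other animal gave 1.42 to 1.78 for Hbb, 0.68 to 1.04 for Hba-a2 and 0.77 to 1.20 for Alas2. With 1 surrogate variable in the model the values were 1.35, 0.43 and 0.43, and with limma-voom sample weights 1.26, 0.47 and 0.48.

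**Figure D4:**
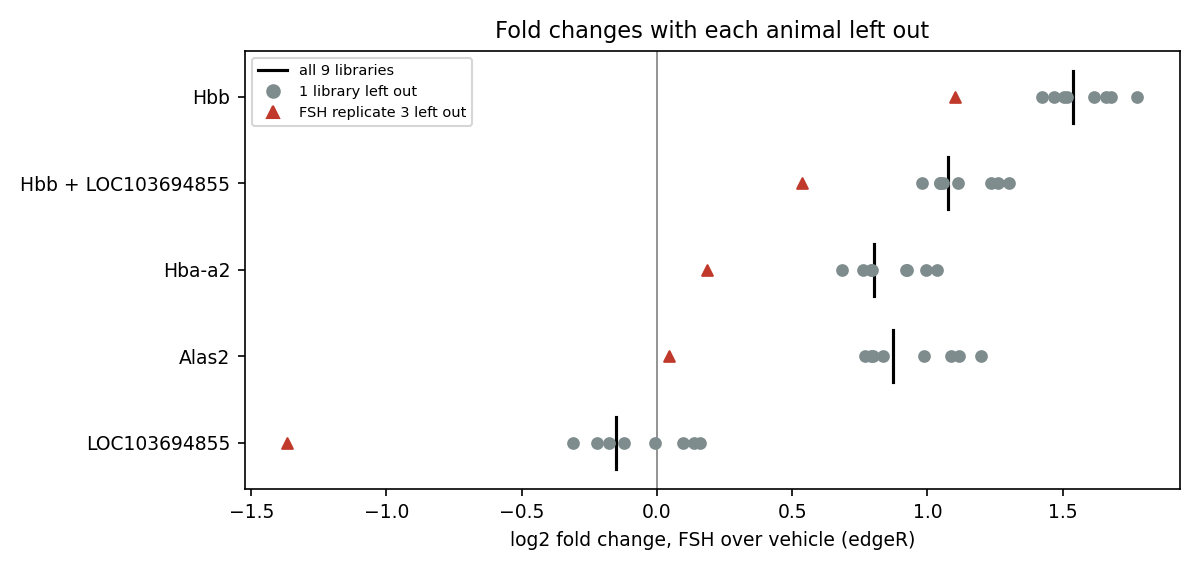
Log2 fold change (FSH over vehicle, edgeR) of the members, of LOC103694855 and of summed Hbb and LOC103694855, with all 9 libraries (bar) and with each library left out (points). Leaving out FSH replicate 3 (triangles) gives the lowest value in each row, 1.10 for Hbb and 0.043 for Alas2.

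The other haem synthesis genes, which also serve the hepatocyte, showed small differences in both directions. Across all tested genes, 11.6% had an unadjusted p under 0.05 in edgeR, the share against which the counts for each list are to be read. Of 18 genes tested, 0 passed FDR 0.05 in edgeR and 4 had an unadjusted p under 0.05, with 8 higher, 10 lower and a median log2 fold change of −0.04, beside 0.0019 for all tested genes. Alas1, the housekeeping synthase, stood at 243 ± 76.4 CPM with FSH (SD, n = 4) and 311 ± 99.9 CPM with vehicle (SD, n = 5; log2 fold change −0.36, SE 0.26, edgeR adjusted p = 0.646). The smallest p-values belonged to Fam210b, a mitochondrial protein of erythroid haem and iron metabolism (−0.45, SE 0.13, edgeR adjusted p = 0.274), and Glrx5, which acts in iron-sulfur cluster assembly (−0.21, SE 0.08, edgeR adjusted p = 0.358). Fam210b lay between 48.2 and 65.4 CPM with FSH and between 68.7 and 97.8 CPM with vehicle, opposite to the members. Its groups did not overlap, as in 4.11% of all tested genes.

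Genes that clear haemoglobin and haem included 0 of 11 past FDR 0.05 and 1 with an unadjusted p under 0.05, with 6 higher and a median of 0.08. That gene was Lrp1, a receptor that takes up haem bound to haemopexin among many other ligands. It was at 482, 594, 766, 502 and 671 CPM with vehicle and 964, 871, 922 and 865 CPM with FSH, without overlap between groups (log2 fold change 0.59, SE 0.13, edgeR adjusted p = 0.204). Groups did not overlap in 4.11% of all tested genes. Hmox2, the constitutive haem oxygenase, had 0.21 (SE 0.14, edgeR adjusted p = 0.598). Hp, the plasma protein haptoglobin that binds free haemoglobin, had 0.17 (SE 0.23), Hpx, haemopexin, 0.12 (SE 0.16), and Hmox1, the inducible haem oxygenase, 0.08 (SE 0.30), with edgeR adjusted p of 0.822, 0.817 and 0.940. FSH replicate 3, the library richest in globin counts, was also the highest of all for these 3, at 13981 CPM for Hp, 13023 CPM for Hpx and 71.3 CPM for Hmox1. Without it their log2 fold changes were −0.13, −0.061 and −0.22.

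Iron genes included 0 of 19 past FDR 0.05 and 6 with an unadjusted p under 0.05 (11.6% of all tested genes), with 13 higher and a median of 0.10. Tfrc, the transferrin receptor through which dividing and haem-making cells take up iron, was lower in every FSH animal. It was at 41.5, 59.4, 60.9, 45.3 and 48.9 CPM with vehicle and at 31.6, 34.4, 35.6 and 35.5 CPM with FSH (log2 fold change −0.58, SE 0.12, edgeR adjusted p = 0.175). Its groups did not overlap, as in 4.11% of all tested genes. Steap3, a ferrireductase of the transferrin cycle, had −0.63 (SE 0.18, edgeR adjusted p = 0.274). Hamp, which encodes the iron-regulating hormone hepcidin, varied widely, at 585 ± 207 CPM with FSH (SD, n = 4) and 528 ± 215 CPM with vehicle (SD, n = 5; 0.15, SE 0.31, edgeR adjusted p = 0.890), and had −0.050 without FSH replicate 2. DESeq2, which called 1.65% of all genes, called Lrp1 (adjusted p = 0.0085) and Tfrc (adjusted p = 0.00267).

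Other genes of the red cell ranged from abundant to barely detected, and several of the abundant ones are also used by other cells. Of 26 genes for the red cell membrane and cytoplasm found in the table, 11 were tested, 0 passed FDR 0.05 and 2 had an unadjusted p under 0.05, with 5 higher and a median of −0.02. Slc4a1, the anion exchanger band 3, was at 2.04, 2.92, 1.24, 2.68 and 6.91 CPM with vehicle and 3.85, 1.87, 5.01 and 2.07 CPM with FSH (0.04, SE 0.46, edgeR adjusted p = 0.983), and its direction turned on leaving out any of 5 animals. Its order of libraries differed from that of the globins, with vehicle replicate 5 the highest. Dmtn, which bundles actin in the red cell skeleton, had −0.83 (SE 0.32, edgeR adjusted p = 0.377), and Epb41, protein 4.1 of that skeleton, 0.28 (SE 0.13, edgeR adjusted p = 0.423).

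The 15 red cell genes with too few counts to test were most abundant in a single library. Their summed counts were 14, 18, 29, 32 and 22 in vehicle replicates 1 to 5 and 23, 14, 117 and 27 in FSH replicates 1 to 4. The 117 counts of FSH replicate 3 have an exact 95% Poisson interval of 96.8 to 140, and the 32 counts of vehicle replicate 4, the next highest, one of 21.9 to 45.2. These intervals, too, cover counting error only and not the spread between animals. Of the 13 genes with any count, 9 had their highest CPM in FSH replicate 3. Among them Ahsp, a chaperone of free alpha-globin, had 21 counts there and 2 to 7 elsewhere, and Sptb, the beta-spectrin of red cells, 16 counts and 1 to 7 elsewhere. Hemgn, an erythroid nuclear protein, had 12 counts there and 0 to 3 elsewhere.

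No tested regulator of red cell formation passed the threshold. Of 8 tested erythroid transcription factors and receptors 0 passed and 0 had an unadjusted p under 0.05 (4 higher, median 0.0041), with Kit, the stem cell factor receptor, at 0.37 (SE 0.21, edgeR adjusted p = 0.524) and Tal1 at 0.27 (SE 0.21, edgeR adjusted p = 0.668). Klf1, the erythroid Krüppel-like factor, had 1 to 6 counts and Epor, the erythropoietin receptor, 2 to 7 counts per library. Epo was listed at 0 in all 9 libraries, as were 8868 genes in all. Of 10 tested genes of erythropoietin and oxygen sensing 0 passed and 3 had an unadjusted p under 0.05 (11.6% of all tested genes), with 6 higher and a median of 0.03, led by the vasodilator peptide gene Adm (−0.64, SE 0.19, edgeR adjusted p = 0.275) and the angiogenic factor gene Vegfa (0.23, SE 0.09, edgeR adjusted p = 0.390). Adm was scarce, with 15 to 40 counts per library.

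**Figure D5:**
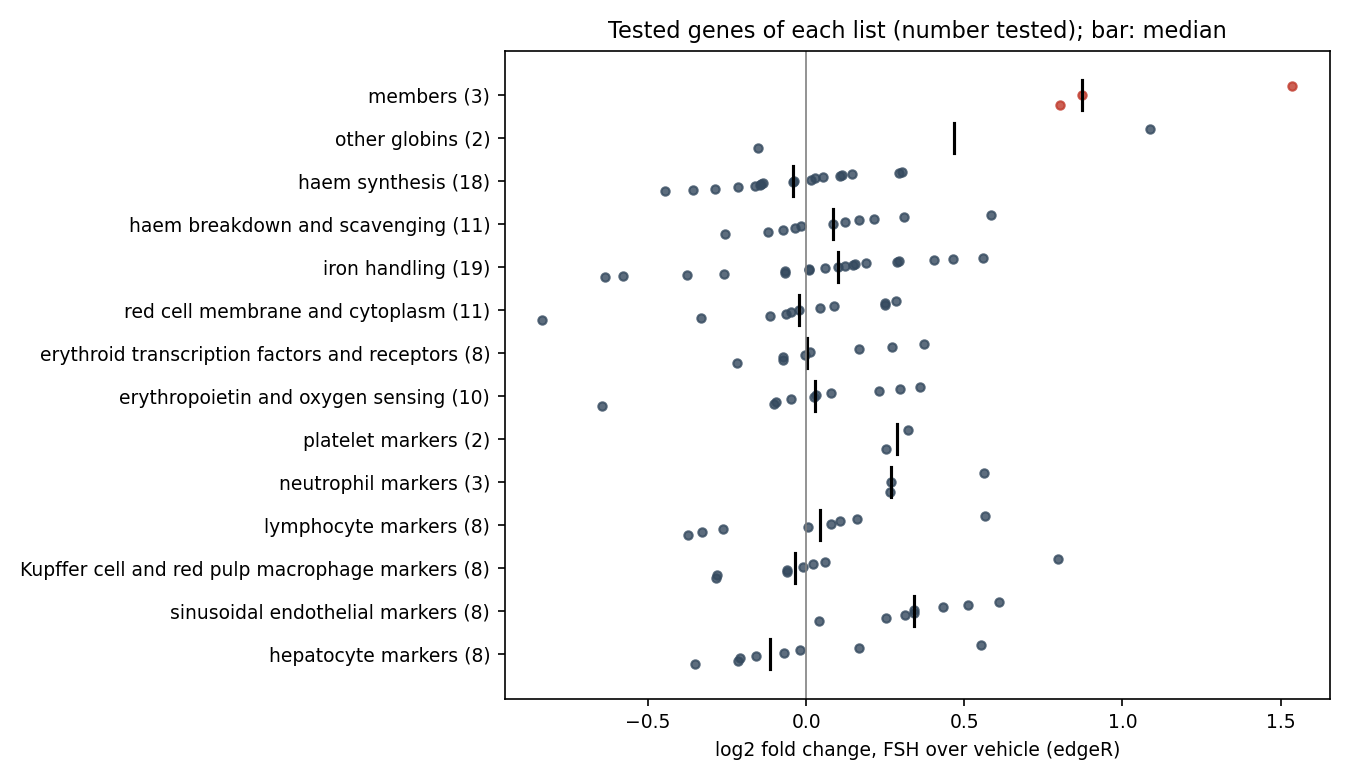
Log2 fold change (FSH over vehicle, edgeR) of each tested gene by list, with the number tested in brackets and a bar at the list's median; the row named members holds Hbb, Hba-a2 and Alas2. List medians outside the globins lie between −0.12 and 0.34, and no gene of the 13 lists passed FDR 0.05.

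Markers of other cells that blood or liver RNA can hold were compared beside the globins. Platelet markers summed to 19.2 to 22.8 CPM with FSH and 15.3 to 19.9 CPM with vehicle. Most of each sum was Itga2b, at 18.2 to 21.4 CPM with FSH and 14.7 to 18.7 CPM with vehicle. Pf4 reached 1.15 CPM at most, so these sums mainly describe Itga2b. Only Itga2b (0.25, SE 0.08, edgeR adjusted p = 0.321) and the platelet chemokine gene Pf4 (0.32, SE 0.32, edgeR adjusted p = 0.751) of 10 were tested, and Ppbp had 0 to 3 counts. Neutrophil markers summed to 1.51 to 4.24 CPM and 1.22 to 3.75 CPM, 3 of 3 tested higher, with S100a9 at 0.56 (SE 0.45, edgeR adjusted p = 0.677) and Fcnb at 0.27 (SE 0.37, edgeR adjusted p = 0.831). Their sum was highest in FSH replicate 3. Lymphocyte markers summed to 22.5 to 37.2 and 18.4 to 41.8 CPM, 5 of 8 tested higher, with Nkg7 at −0.33 (SE 0.27, edgeR adjusted p = 0.684). Markers of Kupffer cells and red pulp macrophages, which engulf aged red cells, summed to 328 to 480 and 173 to 528 CPM, 3 of 8 higher with a median of −0.04. Timd4 had 0.80 (SE 0.62, edgeR adjusted p = 0.669), a value that became −0.025 when FSH replicate 2 was left out, and Cd68 had −0.28 (SE 0.26, edgeR adjusted p = 0.725).

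Sinusoidal endothelial markers were higher in 8 of 8, with a median of 0.34, 5 at an unadjusted p under 0.05 and 0 past FDR 0.05. Of all tested genes, 50.5% were higher, 11.6% had an unadjusted p under 0.05 and 4.11% had groups that did not overlap. They summed to 243 to 336 CPM with FSH and 199.996 to 275 CPM with vehicle, highest in FSH replicate 1. The lectin Clec4g (0.61, SE 0.13, edgeR adjusted p = 0.190, and adjusted p = 0.00803 in DESeq2) and the scavenger receptor Stab1 (0.43, SE 0.11, edgeR adjusted p = 0.219) led them, without overlap between groups. For Stab1 the gap was under the 0.0386 CPM of 1 read in FSH replicate 3. That library stood at 19.978 CPM and vehicle replicate 4 at 19.969 CPM, practically a tie. Hepatocyte markers had 2 of 8 higher and a median of −0.12, with Fgb, a fibrinogen chain, at 0.55 (SE 0.18, edgeR adjusted p = 0.312) and Ahsg at −0.22 (SE 0.12, edgeR adjusted p = 0.508). The part of any of these cell types in the globin levels was not tested.

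The genes most like each member over the 9 libraries differed between Hbb and the others. Among 10800 tested genes with a mean of at least 1 CPM, those closest to Hba-a2 in log2 CPM were Hba-a3 (Pearson r 0.97), Alas2 (0.96), Pus3 (0.93), Runx1 (0.93) and Thbd (0.91). Those closest to Alas2 were Hba-a2 (0.96), Cdc25b (0.93), Cav2 (0.92), Hba-a3 (0.91) and Cd63 (0.89). Hbb had no globin among its closest 5, which were Unc13a (0.95), Ubn1 (0.93), Pdzrn3 (0.93), Ypel3 (0.92) and Zc3h13 (0.92). Hba-a3 followed at rank 20 (0.89) and Hba-a2 at rank 37 (0.87), while LOC103694855 stood at rank 5408 (0.023). These values describe 9 libraries that share the contrast used to choose the members, and carry no test.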

How the data were processed

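Paired-end, strand-specific messenger RNA libraries were made from snap-frozen liver of individual rats, per the labels' protocols. The authors deposited whole-number read counts per gene with symbols and Ensembl identifiers, not normalised. STAR, DESeq2, edgeR and build rn6 are named in the submitters' processing notes, while annotation, strand setting and handling of reads shared between genes were not stated there or in the labels. Columns were matched to animals by their labels, and 0 columns of other samples were present.

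From the deposited counts, edgeR 4.0.16 under R 4.3.3 gave 2-sided quasi-likelihood tests after TMM scaling and its default low-count filter, with Benjamini-Hochberg adjustment over 11924 genes. Each SE is the log2 fold change divided by the root of its F value. No libraries of a group were duplicates (chi-square divided by its degrees of freedom was at least 25.9). Members, 13 gene lists and motifs were chosen with earlier results of these data known. From each list the members past FDR 0.05, otherwise the 2 with the smallest p, were named, with a fixed set of haem, iron and red cell genes as values and the 5 genes most like each member. Some genes that this rule names are not reported here. Low-count red cell genes were named after their values were seen. Within-group relations used log2 CPM with a prior count of 2. The steps were tested on simulated counts. The alternatives comprised DESeq2 1.42.0, a block for the replicate number, sample weights in limma-voom (limma 3.58.1), DESeq2-type size factors, library totals, no filter, at least 1 CPM in 4 libraries, 1 surrogate variable (sva 3.50.0), an FDR of 0.10, a prior count of 0.5 and leaving out each animal. Summing the rows of each adult chain was added after seeing the data.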

Additional observations from a re-analysis of the deposited data

Results flagged for a closer look

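For 112 sets of values in 1 group, the gap from the extreme animal to its neighbour was set against the group's range. By chance about 1 in 20 (5.6) would have an unusually wide gap if values were independent and normally distributed. Several sets share counts and CPM was not logged, so 5.6 is only a rough guide. The gap was unusually wide in 9. In FSH replicate 3 these were LOC103694855 (100.9 CPM, next 25.2), the summed globins other than Hbb and Hba-a2 (108 CPM, next 26.2), most of which is LOC103694855, and the summed markers of Kupffer cells and red pulp macrophages (480 CPM, next 347). In vehicle replicate 4 they were Alas2 (3.43 CPM, next 1.73), summed beta-globin (156 CPM, next 99.2) and Fcnb (0.868 CPM, next 0.419). In vehicle replicate 3 it was the share of LOC103694855 among beta-globin counts (22.2%, lowest, next 39.8%). The others were Hpx in vehicle replicate 2 (8015 CPM, lowest, next 8912) and the summed erythroid transcription factors and receptors in vehicle replicate 1 (137 CPM, lowest, next 163). Most of the latter sum was Zfpm1 (82.8 CPM) and Ldb1 (40.8 CPM). Hba-a2 and Alas2 in FSH replicate 3 fell just short, with gaps of 0.819 and 0.828 of the group's range.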

How the results depend on the processing

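Hbb, Hba-a2 and Alas2 kept a positive fold change under every alternative. Nothing is read from that sign, since the members were chosen with this difference known in the same animals. On leaving out each animal, the within-group relations of the 3 pairs had r from 0.83 to 0.97 and an adjusted exact permutation p under 0.05. These p-values are not independent of that choice, so nothing is read from their staying under 0.05. Over the fits without 1 animal the log2 fold change of Alas2 lay between 0.043 and 1.20. The count of genes past the threshold was 4, and 181 with DESeq2, 2 with 1 surrogate variable, 12 at an FDR of 0.10 and 0 to 4 without 1 animal. It was 0 on leaving out FSH replicate 1 or 3 or vehicle replicate 1 or 4, 1 on leaving out FSH replicate 4, and 2 on leaving out vehicle replicate 3 or 5. Of the 13 lists, 3 genes passed with DESeq2 (Lrp1, Tfrc and Clec4g) and 0 in edgeR. With the replicate block 5 genes passed, and Hbb had 1.34, Hba-a2 0.62 and Alas2 0.58. The numbers do not pair the animals (same-numbered r −0.079 to 0.054, 0 of 4 FSH libraries closest to their own number). Directions that turned, all far from the threshold, were Hmox1 (−0.21 with 1 surrogate variable, −0.22 to 0.26 without 1 animal), Hp (−0.075, and −0.13 to 0.33), Hpx (−0.040, and −0.061 to 0.25), Slc4a1 (−0.059 with limma-voom, −0.027 with 1 surrogate variable, −0.26 to 0.53), Hamp (−0.050 to 0.41), LOC103694855 (−1.37 to 0.16) and Timd4 (−0.025 to 1.11). The causes were not tested. Depth limits Alas2, Adm and the red cell genes under about 1 CPM.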
